A study of Mus musculus with 6 samples.

Results

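The 32 genes described here make, sense, import and export cholesterol. They were taken as a named list of gene symbols, by known role. The list was chosen with earlier results of these data known, so the counts below may not be independent of that choice. All 32 symbols were found among the 32245 symbols in the count files. By role, they are 6 enzymes of the early mevalonate pathway, 11 enzymes that turn farnesyl units into squalene and squalene into sterols, 5 regulators of the SREBP transcription factors, 3 other SREBP targets, 2 proteins of lysosomal cholesterol exit, and 5 receptors and targets of the LXR system. RNA sequencing was done on polyadenylated RNA from wild type primary cardiomyocytes of neonatal mouse heart. The cells had been given PBS (the vehicle control), BMP2 (a ligand of the BMP receptors), or BMP2 together with dorsomorphin, written BMP2+DM, with 2 libraries in each of the 3 groups. Dorsomorphin is an inhibitor of BMP receptor kinases that is also known to inhibit the AMP-activated kinase. No group received dorsomorphin alone, and the sources used here give no dose, no time and no account of how the cells were purified. Nothing in the labels says that the 2 libraries of a group came from separate cultures, so the p-values measure the spread between these libraries, which may be technical.

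Cells build cholesterol from acetyl-CoA through mevalonate, farnesyl diphosphate, squalene and lanosterol. When sterol in the endoplasmic reticulum is scarce, the escort protein Scap carries SREBP precursors to the Golgi for cleavage, and the released factors bind sterol elements in the promoters of the synthesis enzymes, with NF-Y at nearby CCAAT boxes as a frequent partner. When sterol is plentiful, the Insig proteins hold Scap back and oxysterols activate the LXR receptors, which raise the exporters Abca1 and Abcg1. Cardiomyocytes use cholesterol in the sarcolemma and its caveolae and in transverse tubules.

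As a description with no test, the promoters of the genes were searched for motif letters. The search used the RefSeq windows of the GRCm38.p6 build, each 250 bases before to 50 bases after a start site. Windows were found for 26 of the 32 genes; Fdps, Fdft1, Sqle, Stard4, Npc1 and Abcg1 are named only. Letters were matched on both strands. The stretches of 4 synthesis enzymes are shown because they hold the sterol element or differ in the number and place of their CCAAT boxes. Each lies upstream of the start site on the plus strand and is written 5′ to 3′. A stretch is shorter than its window, and some matches of Hmgcs1, Mvk and Nsdhl lie outside it. The whole windows hold 4 CCAAT matches for Hmgcs1, 5 for Mvk, 1 for Lss and 4 for Nsdhl. Capitals mark the matches to TCACNCCAC, the sterol element, and to CCAAT, which reads ATTGG on the other strand.
Hmgcs1, chr13:119690201-119690350: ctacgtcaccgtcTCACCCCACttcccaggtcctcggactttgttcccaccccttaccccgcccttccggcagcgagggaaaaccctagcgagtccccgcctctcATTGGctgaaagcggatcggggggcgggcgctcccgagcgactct
Mvk, chr5:114444119-114444268: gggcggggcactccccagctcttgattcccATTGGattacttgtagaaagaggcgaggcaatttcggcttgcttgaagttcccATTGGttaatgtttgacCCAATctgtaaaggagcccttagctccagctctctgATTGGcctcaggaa
Lss, chr10:76531438-76531587: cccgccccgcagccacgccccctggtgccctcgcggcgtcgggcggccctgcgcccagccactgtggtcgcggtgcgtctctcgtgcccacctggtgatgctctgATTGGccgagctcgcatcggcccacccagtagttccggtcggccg
Nsdhl, chrX:72918412-72918520: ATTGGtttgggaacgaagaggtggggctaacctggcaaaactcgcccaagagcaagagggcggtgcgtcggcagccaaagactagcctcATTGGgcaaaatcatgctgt

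The CCAAT letters were in a window of 20 of the 26 genes (76.9%), against 41.1% of the 27025 genes with a RefSeq window. All 14 synthesis enzymes with a window held them, and 6 of the 12 other genes did. At least 2 matches in 1 window were found for 9 of the 14 enzymes (64.3%), 3 of the 12 other genes (25%) and 13.3% of all genes. The sterol element TCACNCCAC was in 1 of the 26 genes, Hmgcs1, 137 to 129 bases before its start site, and in 1.44% of all genes. The LXR element searched, AGGTCA repeated directly after any 4 bases, was in no window of the 26 genes and in 0.0148% of all genes. A match gives the letters only, and no match says only that these letters are not in this window. A gene was counted if any of its windows held the letters, so genes with more windows had more chances. The shares of all genes were not limited to the genes tested for expression.

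**Figure D1:**
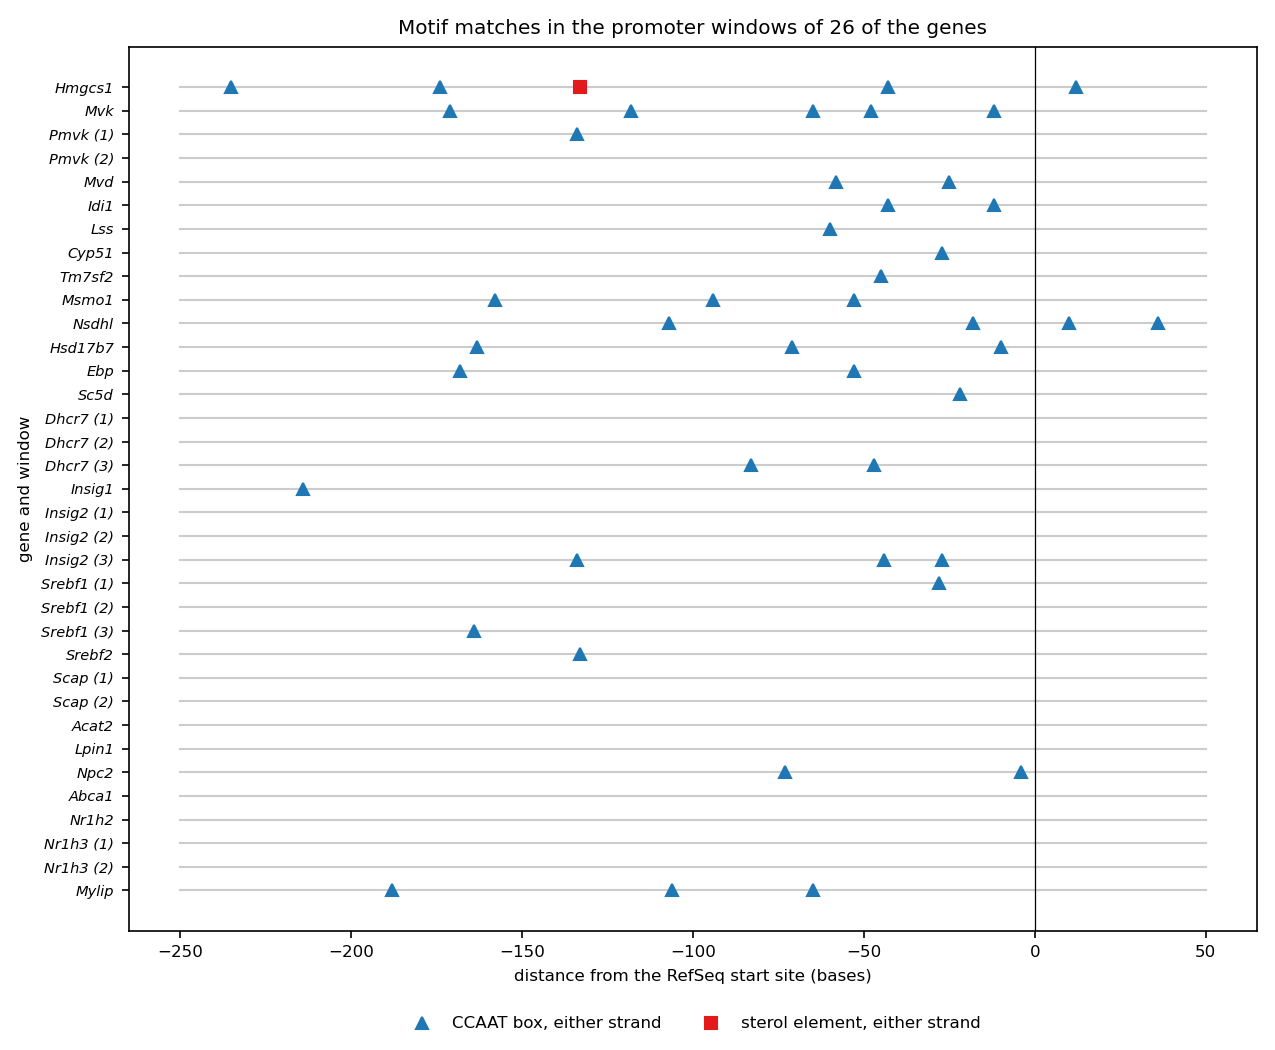
Distance in bases from the RefSeq start site (horizontal axis) of each motif match in the promoter windows of 26 genes (rows, 1 for each window; triangles, CCAAT on either strand; square, sterol element). All 14 synthesis enzymes carry at least 1 triangle, and the only square is in Hmgcs1.

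Levels are given in CPM, a gene's count relative to the library total after trimmed-mean scaling. Total gene counts ran from 10106667 to 14366042 per library, and the 32 genes held 12747 to 17729 of them. All 32 passed the filter on low counts that left 14378 genes to test. The gene models Gm42418 and AY036118, which lie on ribosomal repeats, took 1.31% of the gene counts in PBS 1 and 2.10% in BMP2 1, against 0.0702% to 0.0928% in the other 4 libraries, so counts are also given without PBS 1 and BMP2 1. Cardiomyocyte markers were abundant in all libraries, and so were fibroblast markers (values at the end).

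Adding dorsomorphin to BMP2 raised 11 of the 32 genes and lowered none. The 11 were Hmgcs1, Fdps, Fdft1, Sqle, Lss, Cyp51, Msmo1, Nsdhl and Hsd17b7, all synthesis enzymes, and the regulators Insig1 and Srebf2. Over the 14378 genes tested, 4.28% were called higher and 4.44% lower in the same comparison, by edgeR's quasi-likelihood test with Benjamini-Hochberg adjustment over all genes and a threshold of 0.05 on the adjusted p. All 17 enzymes had a log2 fold change above 0, from 0.06 to 0.76 with a median of 0.47, as did 12 of the other 15 genes with a median of 0.16. Of all genes, 50.1% were above 0. The BMP2+DM libraries both lay above both BMP2 libraries for 19 of the 32 genes and both lay below them for none, against 25.4% and 24.9% of all genes. No gene of the 32 was lower at an unadjusted p under 0.05 either, and DESeq2 called 7 higher and 0 lower. Leaving out 1 library gave 7 to 9 genes called higher; the count was 7 without BMP2 1, without BMP2 2 or without BMP2+DM 2. It was 3 without PBS 1 and BMP2 1 together (Hmgcs1, Cyp51 and Msmo1), with log2 fold changes of 0.62 for Fdps, 0.68 for Fdft1 and 0.58 for Sqle at adjusted p of 0.0623, 0.0953 and 0.0677.

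BMP2 alone raised 1 of the 32 genes, Sqle, and lowered none against PBS. The background was 6.55% of all genes called higher and 9.29% called lower. The 32 genes were split evenly, with 16 above 0 and a median log2 fold change of 0.01, against 50.7% of all genes. The groups did not overlap for 7 genes that were higher with BMP2 and 7 that were lower, against 27.9% and 28.0% of all genes. Fdps, Fdft1 and Msmo1 were lower at an unadjusted p under 0.05, with log2 differences of -0.26, -0.32 and -0.34 and adjusted p of 0.101, 0.0986 and 0.0631 by edgeR. DESeq2 called 1 gene higher and 0 lower. Without PBS 1 and BMP2 1 no gene passed, and Sqle stood at a log2 fold change of 0.60 with an adjusted p of 0.0795; Dhcr7 joined Sqle without PBS 1 (0.78, adjusted p = 0.0445) and Idi1 did without BMP2 2 (0.65, adjusted p = 0.0313).

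With both agents, 11 of the 32 genes were raised against PBS and none was lowered, where 9.38% and 11.5% of all genes were called. These were Hmgcs1, Mvk, Idi1, Fdps, Sqle, Lss, Cyp51, Msmo1, Nsdhl and Hsd17b7 among the enzymes, and Acat2. A log2 fold change above 0 was found for 27 of the 32 genes, with a median of 0.27, against 50.9% of all genes. The groups did not overlap for 21 genes that were higher with both agents and for 0 that were lower, against 29.0% and 29.5%. At an unadjusted p under 0.05, 15 genes were higher and 0 lower by edgeR, and DESeq2 called 8 higher and 0 lower. Leaving out 1 library gave 6 to 11 genes, the count being 6 without PBS 2 or without BMP2+DM 2. Without PBS 1 and BMP2 1 it was 6. This comparison shares its BMP2+DM libraries with the comparison against BMP2 and its PBS libraries with the comparison of BMP2 against PBS, so the 3 sets of values are given side by side and are not independent.

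**Figure D2:**
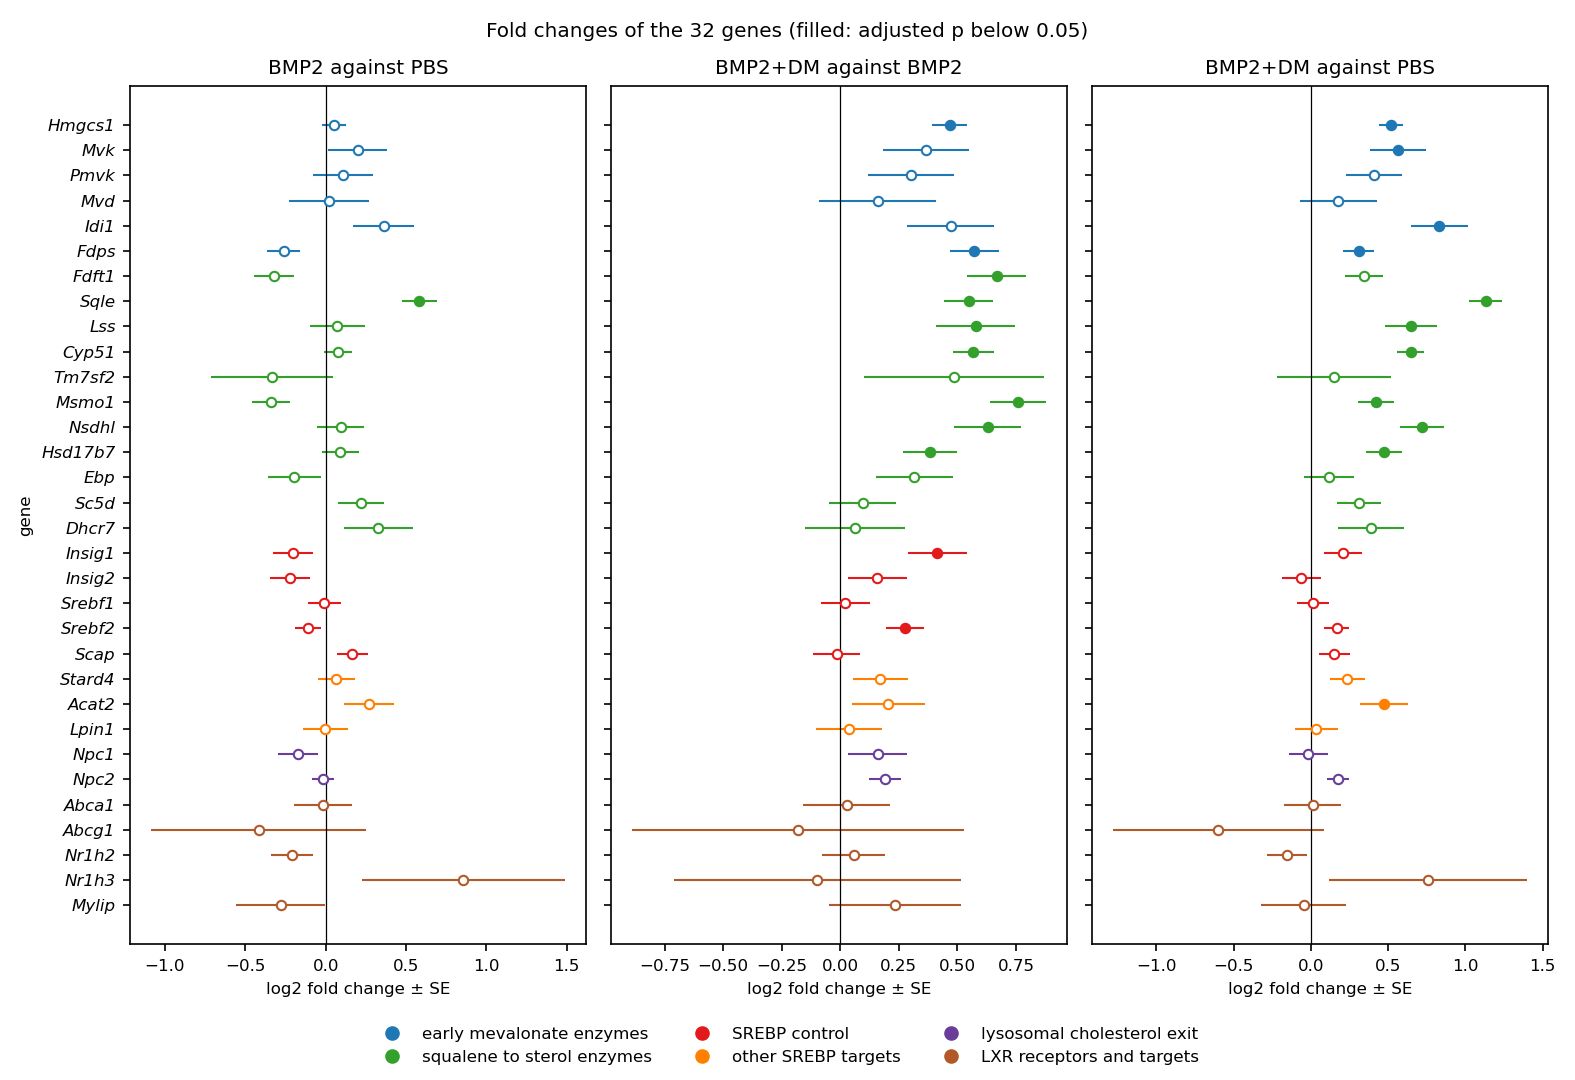
Log2 fold change with its standard error (horizontal axis) of each of the 32 genes (rows, coloured by role) in the 3 comparisons, each fitted over 6 libraries; filled points passed the adjusted threshold of 0.05. In the middle panel, dorsomorphin added to BMP2, all 17 enzymes lie to the right of 0.

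Summed over the 17 synthesis enzymes, the level was 553.5 and 520.2 CPM in the PBS libraries, 557.4 and 557.5 CPM with BMP2, and 771.5 and 781.3 CPM with both agents. The BMP2+DM libraries lay above all the others, while both BMP2 libraries lay slightly above both PBS libraries. Between genes, levels were compared as CPM per kilobase of exon, averaged over the 6 libraries. On that scale Npc2 was the most abundant of the 32 at 33.8, then Hmgcs1 at 26.7, Cyp51 at 17.5, Srebf2 at 16.4 and Fdps at 13.5. Abcg1 at 0.251, Nr1h3 at 0.683 and Tm7sf2 at 0.739 were the least abundant.

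**Figure D3:**
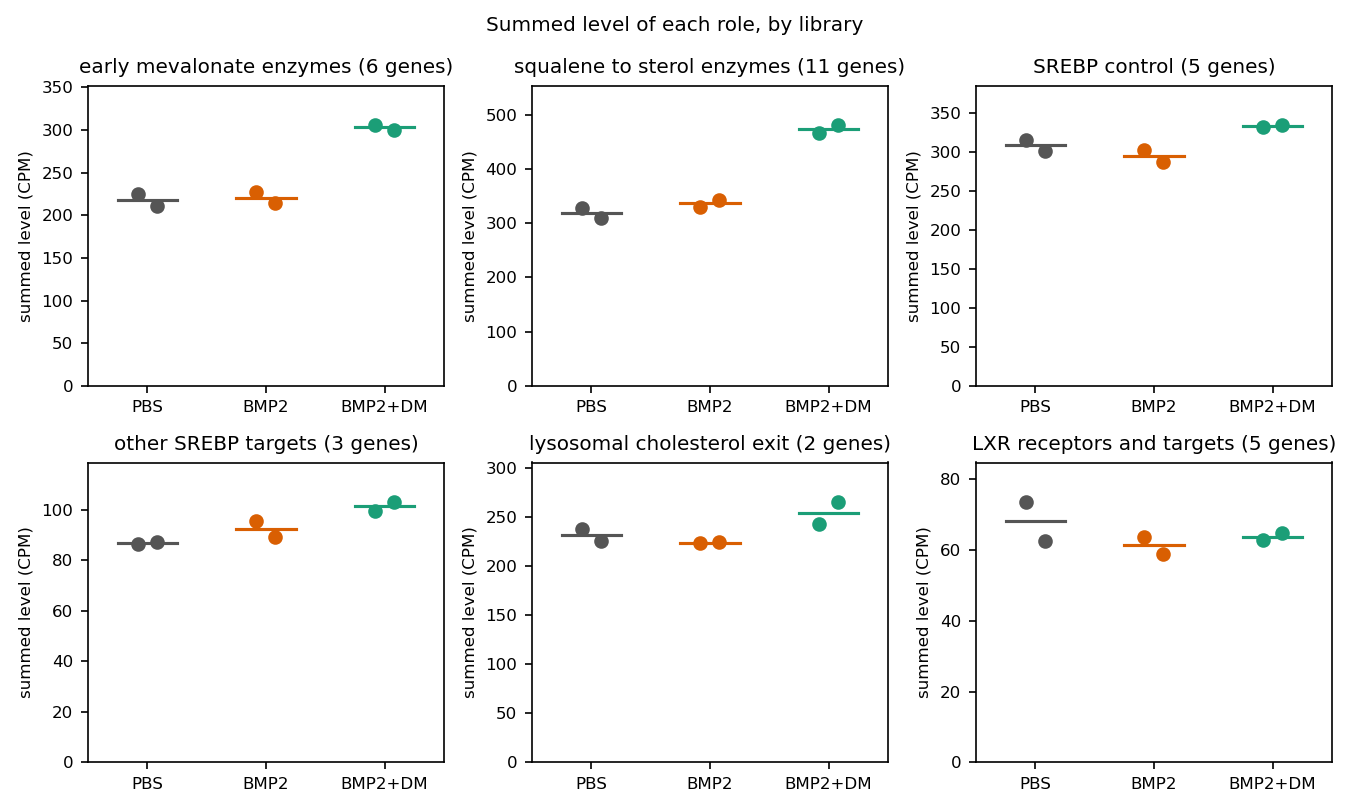
Summed level in CPM (vertical axis, from 0) of the genes of each role in each of the 6 libraries (points) by group, with the group means. The early mevalonate enzymes sum to 300.4 and 305.7 CPM in the BMP2+DM libraries and to 210.9 to 227.4 CPM in the other 4.

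Among the 6 early mevalonate enzymes, 2 rose when dorsomorphin was added to BMP2 and 4 were higher with both agents than with PBS. None passed the test with BMP2 alone (0 higher and 1 lower at an unadjusted p under 0.05, and DESeq2 called 0). The shares of all genes called higher were 4.28%, 9.38% and 6.55% in that order of comparisons. Hmgcs1 (chromosome 13, bases 119690379 to 119708260, mm10), which joins acetyl-CoA and acetoacetyl-CoA, had 110.1 and 102 CPM with PBS, 113 and 107 CPM with BMP2, and 154 and 149.5 CPM with both agents. Its PBS and BMP2 libraries overlapped and its BMP2+DM libraries lay above all 4. The log2 fold change was 0.47 ± 0.08 (SE) against BMP2 (adjusted p = 5.50e-04) and 0.52 ± 0.07 against PBS (adjusted p = 5.90e-05) by edgeR, and each held in all 12 alternative analyses. For BMP2 alone it was 0.05 ± 0.08. On the opposite strand the gene model Gm48342 covers 12.1% of the exonic bases of Hmgcs1. The strand setting of the counting is not given in the sources used here.

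Fdps, which makes farnesyl diphosphate, the branch point to sterols and other isoprenoids, had 56.8 and 53.7 CPM with PBS, 47.5 and 44.7 CPM with BMP2, and 71.4 and 65.7 CPM with both agents. The BMP2 libraries were the lowest and the BMP2+DM libraries the highest, with no overlap between groups. It was 1.49-fold higher with dorsomorphin and BMP2 than with BMP2 (log2 0.57 ± 0.10, edgeR adjusted p = 0.00153) and 1.24-fold higher than with PBS (0.31 ± 0.10, adjusted p = 0.0373). The second of these calls was kept in 6 of the 12 alternatives. It was lost when PBS 1, PBS 2, BMP2+DM 1 or BMP2+DM 2 was left out (log2 0.25 to 0.37). It was also lost in DESeq2 (adjusted p = 0.0838) and without PBS 1 and BMP2 1 together (0.35). Of the exonic bases of Fdps, 26.7% are shared with the gene model Gm43738 on the same strand, and the sources used here do not name the annotation used for counting, so whether this moved its counts was not tested.

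Idi1, which isomerises isopentenyl diphosphate, had 14.9 and 17.1 CPM with PBS, 25.1 and 15.8 CPM with BMP2, and 28.1 and 28.7 CPM with both agents. BMP2 1 was high and BMP2 2 lay within the PBS range, while the BMP2+DM libraries were above all others. The difference passed against PBS (log2 0.83 ± 0.19, edgeR adjusted p = 0.00347), though not without PBS 1 (0.73, adjusted p = 0.0597). Against BMP2 it was 0.47 ± 0.18 with an adjusted p of 0.134, and 0.85 with an adjusted p of 0.0188 without BMP2 1. Mvk, the mevalonate kinase, had 18.6 and 12.6 CPM with PBS, 18.3 and 17.8 CPM with BMP2, and 21.3 and 25.2 CPM with both agents. Its lowest library was PBS 2, and its call against PBS (log2 0.57 ± 0.18, adjusted p = 0.0352) was lost without PBS 2 (0.32, adjusted p = 0.335), without BMP2+DM 2 (0.44, adjusted p = 0.210) and in DESeq2 (adjusted p = 0.0897).

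The other early enzymes did not pass in any comparison. Pmvk, the phosphomevalonate kinase, ran from 12.5 to 20.7 CPM over the 6 libraries, and Mvd, the mevalonate diphosphate decarboxylase, from 8.73 to 15.01 CPM. Pmvk was at a log2 difference of 0.30 ± 0.18 against BMP2 and 0.41 ± 0.18 against PBS with both agents. For Mvd the libraries of one group differed as much as the groups did.

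**Figure D4:**
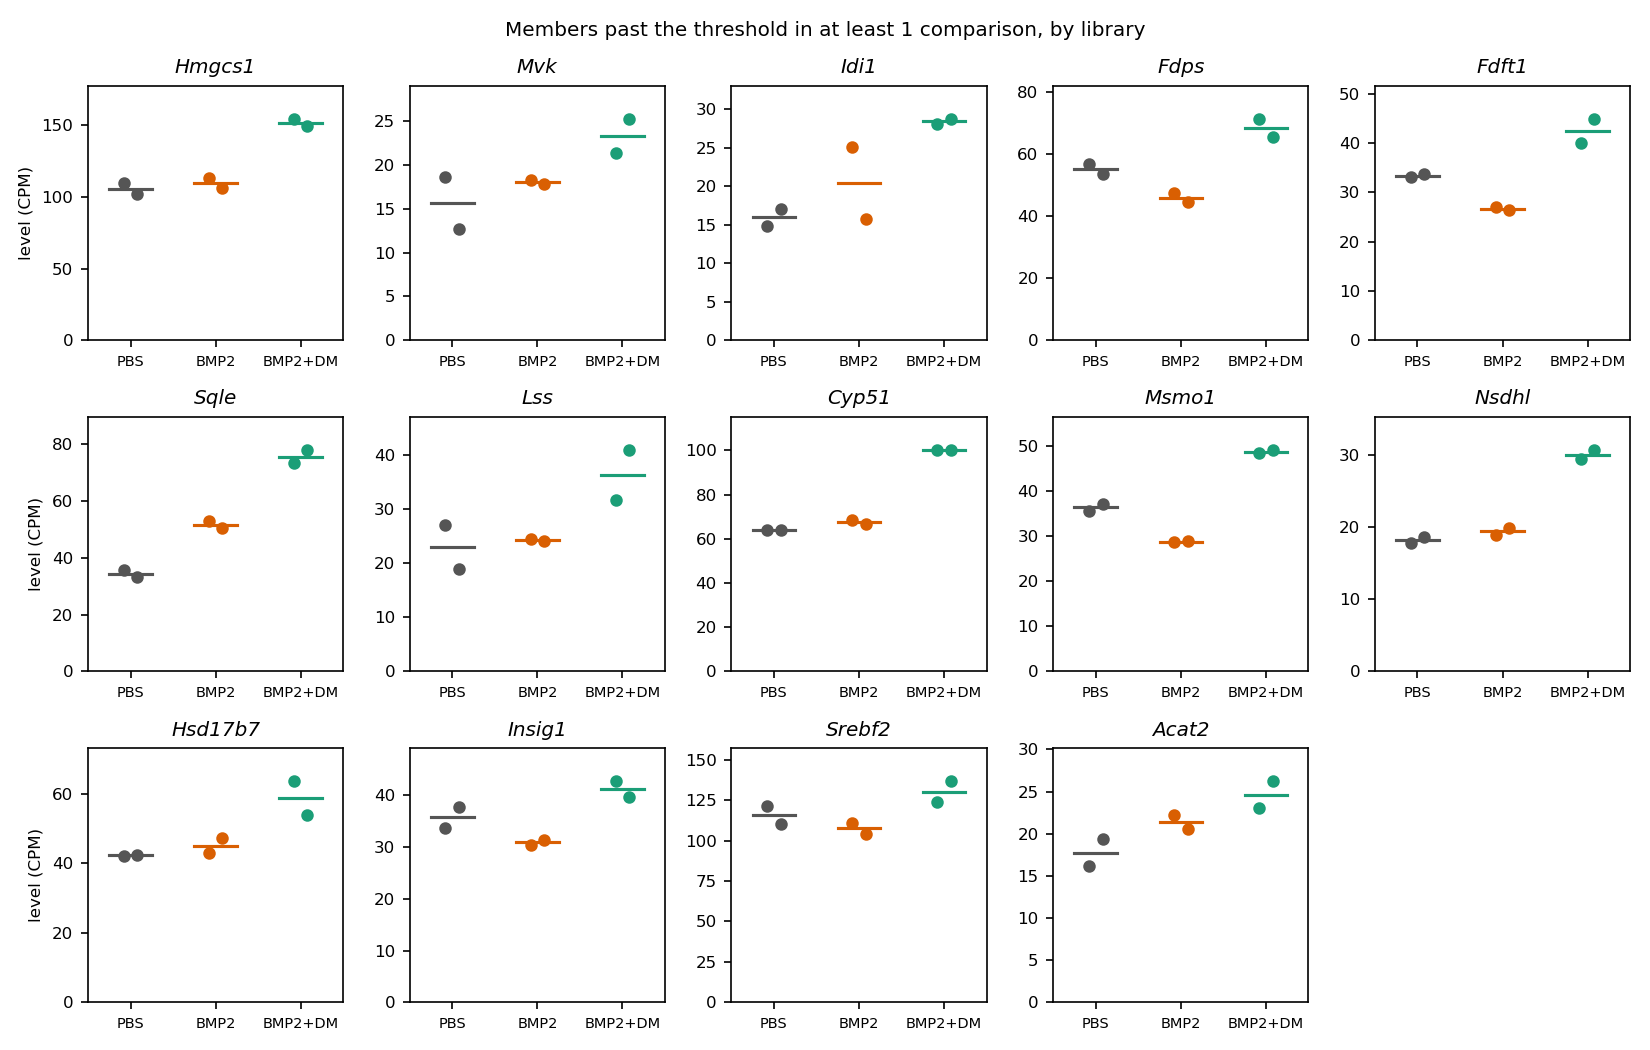
Level in CPM (vertical axes, 1 scale per gene) in each library (points) by group for the genes that passed the adjusted threshold in at least 1 comparison, with the group means. Sqle rises in steps from PBS to BMP2 to BMP2+DM, while Fdps, Fdft1 and Msmo1 are lowest with BMP2.

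Of the 11 enzymes from squalene synthesis to cholesterol, 7 rose when dorsomorphin was added to BMP2. With both agents 6 were higher than with PBS, and 1 rose with BMP2 alone. The median log2 fold changes of the 11 enzymes were 0.55, 0.42 and 0.08 in that order. Of all genes, 4.28%, 9.38% and 6.55% were called higher in the same order. The 1 call with BMP2 alone says little about this role. Sqle (chromosome 15, bases 59315077 to 59331192), the squalene epoxidase and a rate-limiting step after mevalonate, had 35.6 and 33.2 CPM with PBS, 52.8 and 50.3 CPM with BMP2, and 73.1 and 77.7 CPM with both agents. The groups were apart at each step. BMP2 raised it 1.498-fold (log2 0.58 ± 0.11, edgeR adjusted p = 8.50e-04), dorsomorphin raised it a further 1.46-fold over BMP2 (0.55 ± 0.10, adjusted p = 0.00210), and it stood 2.19-fold above PBS with both agents (1.13 ± 0.11, adjusted p = 3.46e-07). The last call held in all 12 alternatives, and the first 2 in 11 of 12.

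Msmo1 (chromosome 8, bases 64718139 to 64733792), a sterol C4-methyl oxidase, had 35.7 and 37.2 CPM with PBS, 28.6 and 28.9 CPM with BMP2, and 48.4 and 49.1 CPM with both agents. BMP2 libraries were below and BMP2+DM libraries above the PBS libraries. The rise over BMP2 was 1.69-fold (log2 0.76 ± 0.12, edgeR adjusted p = 3.85e-04) and held in all 12 alternatives. Against PBS the log2 fold change was 0.42 ± 0.12 (edgeR adjusted p = 0.0139) and passed in 7 of the 12 alternatives. It missed the threshold when PBS 1, PBS 2, BMP2+DM 1 or BMP2+DM 2 was left out (0.39 to 0.45). Without PBS 1 and BMP2 1 together it missed as well (0.39).

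Fdft1, squalene synthase, the first enzyme committed to sterols, followed the same order. It had 33.1 and 33.6 CPM with PBS, 26.9 and 26.4 CPM with BMP2, and 40.0 and 44.8 CPM with both agents. The rise over BMP2 was 1.59-fold (log2 0.67 ± 0.13, edgeR adjusted p = 0.00217), while the difference from PBS, 0.35 ± 0.12, had an adjusted p of 0.0539. On the opposite strand Ctsb, the gene of cathepsin B, covers 18.3% of the exonic bases of Fdft1, and the strand setting of the counting is not given in the sources used here.

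Cyp51 (chromosome 5, bases 4081145 to 4104746), the lanosterol demethylase, had 63.8 and 64.0 CPM with PBS, 68.3 and 66.6 CPM with BMP2, and 100.1 and 99.99 CPM with both agents. The BMP2 libraries lay just above the PBS libraries, without passing the test (log2 0.08 ± 0.09), and the BMP2+DM libraries well above both. It rose 1.48-fold over BMP2 (0.57 ± 0.09, edgeR adjusted p = 3.17e-04) and 1.57-fold over PBS (0.65 ± 0.09, adjusted p = 2.46e-05), both in all 12 alternatives.

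Nsdhl, a sterol C4 decarboxylase, had 17.7 and 18.6 CPM with PBS, 18.9 and 19.9 CPM with BMP2, and 29.3 and 30.6 CPM with both agents. Its BMP2+DM libraries were the 2 highest. It rose 1.55-fold over BMP2 (log2 0.63 ± 0.14, edgeR adjusted p = 0.00915) and 1.65-fold over PBS (0.72 ± 0.14, adjusted p = 0.00125). The call against BMP2 was kept in 9 of the 12 alternatives. It was lost without BMP2 1 (0.59), without BMP2+DM 2 (0.60) and without PBS 1 and BMP2 1 together (0.59). The call against PBS was lost only without PBS 1 and BMP2 1 together (0.68).

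Lss, lanosterol synthase, had 27.1 and 18.9 CPM with PBS, 24.5 and 24.2 CPM with BMP2, and 31.7 and 40.9 CPM with both agents. The BMP2+DM libraries were the 2 highest, with a wide gap between them, and PBS 2 was the lowest. Its rise was 0.58 ± 0.17 on the log2 scale over BMP2 (edgeR adjusted p = 0.0415) and 0.65 ± 0.17 over PBS (adjusted p = 0.00973). The first was kept in 7 of the 12 alternatives. It was lost in DESeq2 (adjusted p = 0.0742) and without BMP2 1, BMP2 2 or BMP2+DM 2 (0.38 for the last). Without PBS 1 and BMP2 1 together it was lost as well (0.59). The second was lost without PBS 2 (0.42) or BMP2+DM 2 (0.46). Hsd17b7, a keto-steroid reductase, had 42.2 and 42.5 CPM with PBS, 42.9 and 47.3 CPM with BMP2, and 63.6 and 53.8 CPM with both agents. The BMP2+DM libraries were again the highest, and the PBS and BMP2 libraries lay close together. Its log2 fold change was 0.38 ± 0.12 over BMP2 (adjusted p = 0.0483) and 0.47 ± 0.11 over PBS (adjusted p = 0.00638). The first passed in 3 of the 12 alternatives, and among the 6 that leave out 1 library only without BMP2+DM 2. The second passed in 9 of the 12. It was lost without PBS 1 (0.47), without BMP2+DM 1 (0.34) and without PBS 1 and BMP2 1 together (0.47).

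The other 4 enzymes, spread along the route, did not pass in any comparison. Tm7sf2, the reductase that follows Cyp51, and Dhcr7, the reductase of the last step to cholesterol on one branch, ran from 2.09 to 3.87 CPM and from 9.14 to 17.4 CPM over the 6 libraries. Ebp, a sterol isomerase, ran from 14.9 to 20.6 CPM, and Sc5d, a sterol desaturase, from 32.1 to 45.7 CPM. With both agents against BMP2 their log2 differences were 0.49 ± 0.38 for Tm7sf2, 0.06 ± 0.21 for Dhcr7, 0.32 ± 0.17 for Ebp and 0.10 ± 0.14 for Sc5d. Dhcr7 was lowest in PBS 2, and without PBS 1 it passed against PBS with both agents (0.84, adjusted p = 0.0240).

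Of the 5 genes of SREBP control, 2 rose when dorsomorphin was added to BMP2, where 4.28% of all genes were called higher. None passed in the other comparisons or in DESeq2 in any. Insig1, the endoplasmic reticulum anchor that is itself an SREBP target, had 33.7 and 37.8 CPM with PBS, 30.5 and 31.4 CPM with BMP2, and 42.7 and 39.7 CPM with both agents. The BMP2 libraries were the lowest and the BMP2+DM libraries the highest. The log2 fold change over BMP2 was 0.41 ± 0.13 (edgeR adjusted p = 0.0473), and leaving out any 1 of the 6 libraries ended the call (0.36 to 0.47, adjusted p from 0.0632 to 0.206).

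Srebf2, which encodes the SREBP that acts mainly on the cholesterol genes, had 121 and 110.3 CPM with PBS, 111 and 104 CPM with BMP2, and 124 and 137 CPM with both agents. The PBS and BMP2 libraries overlapped, and the BMP2+DM libraries were the highest. Its log2 fold change was 0.28 ± 0.08 over BMP2 (edgeR adjusted p = 0.0410) and was kept in 5 of the 12 alternatives, with an adjusted p of 0.268 without BMP2+DM 2 (0.21), 0.251 without BMP2 2 (0.23), 0.0894 without BMP2 1 (0.33), 0.0521 without PBS 1 and 0.0527 without PBS 2 (0.28 each). Srebf1, whose SREBP acts mainly on fatty acid genes, ran from 55.1 to 62.0 CPM over the 6 libraries, with log2 differences of -0.01 ± 0.10 with BMP2 and 0.02 ± 0.10 with dorsomorphin added. Insig2 ran from 34.9 to 46.7 CPM and Scap from 51.6 to 59.8 CPM, neither passing in any comparison.

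Of the 3 other SREBP targets, 1 was higher with both agents than with PBS, where 9.38% of all genes were called higher. Acat2, a cytosolic thiolase that makes acetoacetyl-CoA, had 16.2 and 19.3 CPM with PBS, 22.2 and 20.5 CPM with BMP2, and 23.0 and 26.2 CPM with both agents. Its 3 groups did not overlap. It was 0.47 ± 0.16 higher on the log2 scale than with PBS (edgeR adjusted p = 0.0384) and passed in 7 of the 12 alternatives. It did not pass in DESeq2 (adjusted p = 0.116) or without PBS 1, PBS 2 or BMP2+DM 2 (0.35 to 0.60). Without PBS 1 and BMP2 1 together it did not pass either (0.35). Stard4, a sterol carrier, ran from 37.5 to 46.1 CPM and Lpin1, a phosphatidate phosphatase, from 27.6 to 34.9 CPM.

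The pair that moves cholesterol out of lysosomes did not pass. Npc2, the soluble carrier, had 187 and 166 CPM with PBS, 173 and 177 CPM with BMP2, and 195 and 205 CPM with both agents. Its BMP2+DM libraries were the highest, with log2 differences of 0.19 ± 0.07 over BMP2 and 0.18 ± 0.07 over PBS at edgeR adjusted p of 0.0966 and 0.0782; without PBS 1 the second was 0.26 with an adjusted p of 0.0335. Npc1, its membrane partner, had 50.89 and 59.2 CPM with PBS, 50.56 and 46.8 CPM with BMP2, and 47.9 and 60.8 CPM with both agents. Both BMP2 libraries lay below both PBS libraries, narrowly and without passing the test (log2 -0.17 ± 0.12). The BMP2+DM libraries overlapped both groups.

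None of the 5 LXR genes passed in any comparison, and none had an unadjusted p under 0.05 by edgeR or a call by DESeq2. Abca1, which exports cholesterol to apolipoprotein A1, had 15.6 and 13.9 CPM with PBS, 15.6 and 13.7 CPM with BMP2, and 13.1 and 16.7 CPM with both agents. The groups overlapped fully, with log2 differences of -0.02 ± 0.18 with BMP2 and 0.03 ± 0.19 with dorsomorphin added. Abcg1, which exports to larger lipoproteins, had 23 and 34 counts with PBS, 33 and 4 with BMP2, and 21 and 10 with both agents. Nr1h3, LXR alpha, had 15 and 14, 36 and 9, and 27 and 13 counts. The sign of either with BMP2 or with dorsomorphin added depended on which library was left out. At these depths a change of either could not be seen unless it was large, with standard errors of 0.61 to 0.71 on the log2 scale. Nr1h2, LXR beta, ran from 36.3 to 48.0 CPM, and Mylip, a ligase that marks lipoprotein receptors for breakdown, from 4.46 to 7.75 CPM.

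Genes of neighbouring pathways are given for comparison, to be read against the shares of all genes called higher and lower, 6.55% and 9.29% with BMP2 and 4.28% and 4.44% with dorsomorphin added. A single call in a list of 9 to 12 genes says little about that list. Of 13 genes of fatty acid synthesis and desaturation, 4 rose and 1 fell with BMP2, and 0 rose and 1 fell when dorsomorphin was added (3 higher and 3 lower at an unadjusted p under 0.05; DESeq2 called 0 and 1). The medians were 0.16 and 0.06. With both agents against PBS, 5 of the 13 were called higher and 0 lower, where 9.38% and 11.5% of all genes were called. At an unadjusted p under 0.05, 7 were higher and 0 lower, and DESeq2 called 2 and 0. Of the 13, 12 were above 0 in that comparison, against 50.9% of all genes. Among the 5, Gpam was 0.62 ± 0.10 higher than with PBS on the log2 scale (edgeR adjusted p = 2.23e-04). Fasn, fatty acid synthase, had 190.3 and 184 CPM with PBS, 264 and 289.7 CPM with BMP2, and 208 and 223 CPM with both agents. It was highest with BMP2, with log2 differences of 0.56 ± 0.06 (edgeR adjusted p = 4.15e-06) for BMP2 and -0.36 ± 0.06 (adjusted p = 0.00109) for dorsomorphin added. Scd2, a stearoyl-CoA desaturase, had 219 and 240.5 CPM with PBS, 323 and 327 CPM with BMP2, and 342 and 336 CPM with both agents. It rose with BMP2 (0.50 ± 0.06, adjusted p = 3.86e-06) and differed by 0.06 ± 0.05 when dorsomorphin was added.

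Of 9 genes that use isoprenoids for other products, 1 rose and 0 fell in each step (2 higher and 1 lower at an unadjusted p under 0.05 with BMP2, 1 and 0 with dorsomorphin added; DESeq2 called the same numbers as edgeR). Pdss1, of ubiquinone side chain synthesis, rose with BMP2 (log2 0.81 ± 0.15, edgeR adjusted p = 9.61e-04). Dhdds, of dolichol synthesis, rose when dorsomorphin was added, from 36.8 and 39.2 CPM with BMP2 to 54.9 and 50.04 CPM (0.46 ± 0.12, adjusted p = 0.0168). The PBS libraries of Dhdds, at 36.7 and 39.8 CPM, overlapped those with BMP2.

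Of 10 genes that process the SREBPs or degrade sterol-regulated proteins, 1 fell in each step and 0 rose (1 and 0 were higher at an unadjusted p under 0.05, and DESeq2 called the same numbers as edgeR). Mbtps1, the protease that makes the first cut in the SREBPs, fell with BMP2 by 0.27 ± 0.08 on the log2 scale (edgeR adjusted p = 0.0241), and the ubiquitin ligase gene Rnf145 fell by 0.33 ± 0.09 when dorsomorphin was added (adjusted p = 0.0289).

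Of 12 genes of sterol transport and storage, 1 rose and 1 fell with BMP2, and 0 rose and 1 fell when dorsomorphin was added (3 higher and 1 lower at an unadjusted p under 0.05; DESeq2 called 0 and 0). Soat1, which esterifies cholesterol for storage, had 82.1 and 77.3 CPM with PBS, 64.5 and 72.1 CPM with BMP2, and 55.7 and 52.4 CPM with both agents. Its BMP2+DM libraries were the lowest, with a log2 difference of -0.34 ± 0.10 from BMP2 (edgeR adjusted p = 0.0434) and -0.56 ± 0.10 from PBS (adjusted p = 4.13e-04). Nceh1, a cholesteryl ester hydrolase, had 42.2 and 39.2 CPM with PBS, 50.7 and 54.8 CPM with BMP2, and 68.3 and 65.4 CPM with both agents. It rose with BMP2 (0.37 ± 0.11, adjusted p = 0.0226) and was 0.34 ± 0.10 higher again with dorsomorphin, at an adjusted p of 0.0502. Cav1, the caveolae coat gene to which cholesterol binds, fell by 0.79 ± 0.09 with BMP2 (adjusted p = 6.02e-06).

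Of 5 further LXR targets, 1 rose when dorsomorphin was added and 0 passed with BMP2 alone (for BMP2 alone, 0 at an unadjusted p under 0.05 and 0 by DESeq2). When dorsomorphin was added, 3 were higher and 0 lower at an unadjusted p under 0.05, and DESeq2 called 1 and 0. The median log2 fold change was 0.30, with 4 of the 5 above 0. Against PBS, Pltp and Lpcat3 were called higher with both agents and 0 were lower. Lpcat3 differed by 0.45 ± 0.13 on the log2 scale (edgeR adjusted p = 0.0187). Pltp, the phospholipid transfer protein, had 9.22 and 11.6 CPM with PBS, 11.1 and 13.0 CPM with BMP2, and 24.9 and 21.96 CPM with both agents. Its BMP2+DM libraries were the highest, 1.95-fold above BMP2 (log2 0.96 ± 0.18, edgeR adjusted p = 0.00222).

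**Figure D5:**
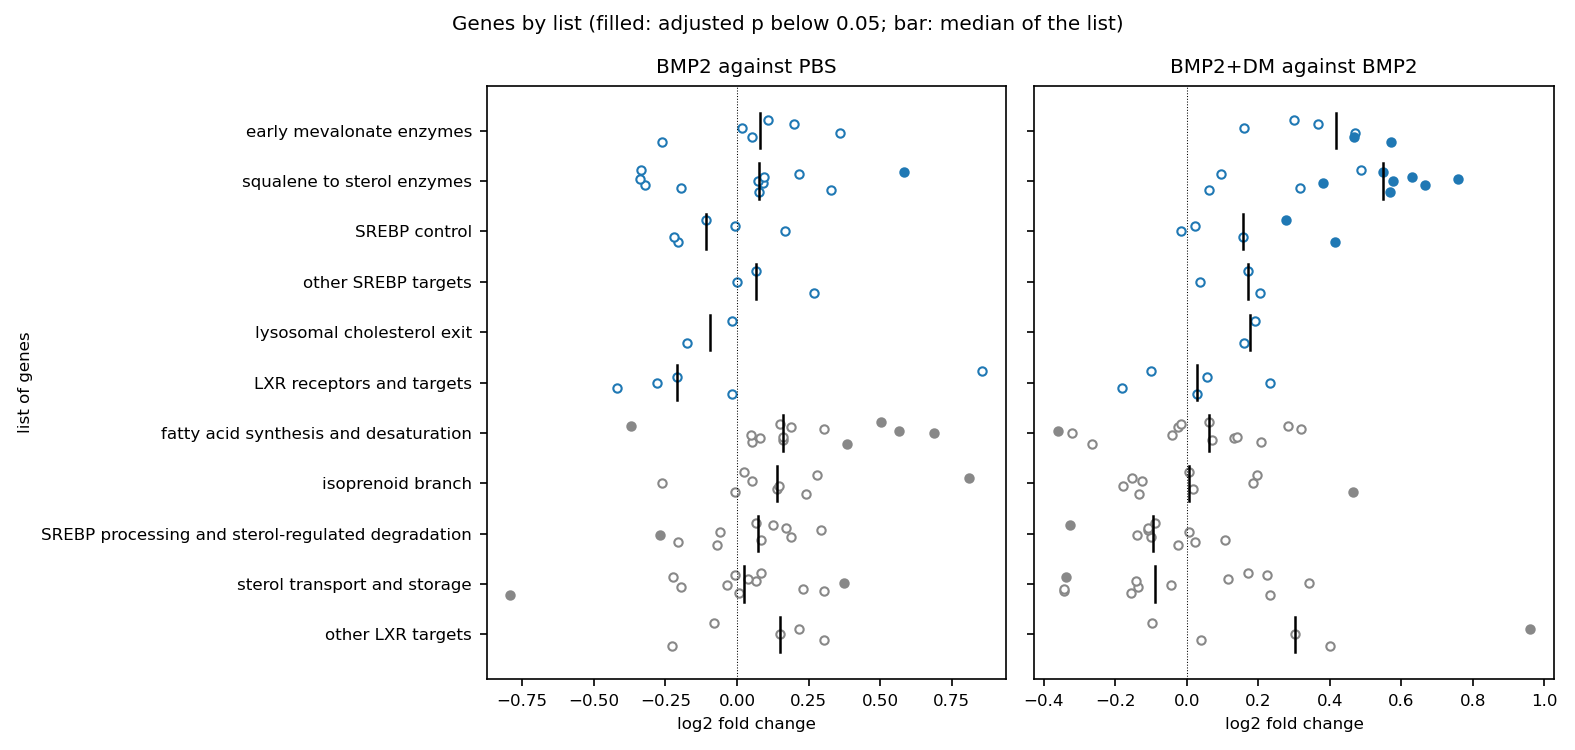
Log2 fold change (horizontal axis) of each gene (points; filled where the adjusted p was below 0.05) in the lists of member roles and neighbouring pathways (rows) for BMP2 against PBS and for BMP2+DM against BMP2, with the median of each list as a bar. With dorsomorphin added to BMP2, the medians of the early mevalonate and the squalene to sterol enzymes, 0.42 and 0.55, are the 2 highest of the lists shown.

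Markers of the cell types that such a culture can hold also differed between the groups, and their part in the results above was not tested. In bulk RNA, fewer cells of a type and less RNA per cell cannot be told apart. Of all genes, 6.55% were called higher and 9.29% lower with BMP2. With dorsomorphin added the shares were 4.28% and 4.44%. The 10 cardiomyocyte markers summed to 27350.0 to 27716.4 CPM with PBS and 23163.3 to 23380.6 CPM with BMP2. With both agents they summed to 25017.9 to 25237.1 CPM. Of them, 0 were higher and 8 lower with BMP2, and 3 and 0 when dorsomorphin was added. The 10 fibroblast markers summed to 12839.9 to 13688.5, 13843.9 to 14028.4 and 12050.1 to 12557.2 CPM. Of them, 3 were higher and 5 lower with BMP2, and 3 and 5 when dorsomorphin was added. The 10 smooth muscle and pericyte markers summed to 4199.1 to 4212.6, 2540.7 to 2551.8 and 2544.9 to 2688.3 CPM. Of them, 0 were higher and 7 lower with BMP2, and 1 and 2 when dorsomorphin was added.

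The 10 endothelial markers summed to 584 to 591 CPM with PBS and 526 to 545 CPM with BMP2. With both agents they summed to 362 to 410.4 CPM. Of them, 1 was higher and 1 lower with BMP2, and 0 and 5 when dorsomorphin was added. The 10 epicardial and mesothelial markers, 9 of them tested, summed to 256 to 273, 199 to 204 and 227 to 238 CPM. Of the 9, 1 was higher and 5 lower with BMP2, and 3 and 1 when dorsomorphin was added. The 10 macrophage and leukocyte markers, 5 of them tested, summed to 91.4 to 95.6, 70.4 to 72.3 and 63.9 to 68.0 CPM. Of the 5, 0 were higher and 1 lower with BMP2, and 0 and 1 when dorsomorphin was added. Ptprc, the pan-leukocyte antigen CD45, had 22 counts over the 6 libraries and 0 in BMP2+DM 2, and Cd14 had 0 in PBS 1.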

How the data were processed

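The deposited files hold whole-number read counts per gene symbol, made by the authors with HTSeq; FastQC, Trimmomatic, STAR, DESeq2 and the mm10 build are named per the submitters' processing notes, with no versions. The sources used here name neither the annotation nor the strand setting. HTSeq's summary lines, 53.8% to 54.2% of each file's total, entered neither library sizes nor tests. Counts were filtered (filterByExpr, minimum 10 per library and 15 in total), scaled by TMM and fitted with edgeR 4.0.16 in R 4.3.3, all 6 libraries in 1 quasi-likelihood model of group means with 3 residual degrees of freedom. The p-values were adjusted by Benjamini-Hochberg over the 14378 genes of each comparison. Only the edgeR steps were tested on simulated counts, for BMP2+DM against BMP2 and with the spread estimated from these data. The promoter search was not. Libraries of a group differed by more than counting noise (chi-square per degree of freedom 3.61 to 4.38). The 32 genes, the pathway lists and the marker lists were chosen with earlier results of these data known. Genes past the threshold were given by library, the others by range, and up to 4 genes of each other list by smallest p. Positions are from GENCODE vM21. Alternatives were DESeq2 1.42.0, relative log expression scaling, no filter, a replicate block, the 2 groups alone, each library left out, and PBS 1 with BMP2 1 left out.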

Additional observations from a re-analysis of the deposited data

How the results depend on the processing

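In 12 alternatives, none of the 276 values of called genes changed sign, while 59 of the 876 values of genes not called did. Of all 1152 values, 1024 kept their sign and side of the threshold, 64 fell short of it and 5 passed it. The genes called lower stayed at 0 in every alternative. For BMP2 against PBS, the genes called higher (1) ranged from 1 to 2 when 1 library was left out, and were 0 without PBS 1 and BMP2 1. For BMP2+DM against BMP2 (11), they were 7 to 9 with 1 library left out, 7 by DESeq2, 9 in a fit of the 2 groups alone and 3 without PBS 1 and BMP2 1. For BMP2+DM against PBS (11), they were 6 to 11, 8 by DESeq2, and 6 without PBS 1 and BMP2 1. All 17 enzymes were above 0 against BMP2, but 15 without BMP2 1 and 15 without BMP2+DM 1. Where 1 library of a group remained, it was assumed to vary like the other groups.

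The replicate numbers share no stated source. Over 11908 genes, the deviations of same-numbered libraries correlated at r = 0.0790 for PBS and BMP2. For PBS and BMP2+DM r was -0.0287, and for BMP2 and BMP2+DM it was -0.00296. PBS 1 and BMP2 1 also shared the high ribosomal-repeat counts, 1.31% and 2.10% of their gene counts. Whether they share a batch was not tested. With the replicate number as a replicate block, 1, 9 and 11 genes were higher in the 3 comparisons; Hsd17b7 (adjusted p = 0.0581) and Insig1 (adjusted p = 0.0575) missed the threshold against BMP2. Genes with few counts, Abcg1 and Nr1h3 above all, had the widest errors.

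The 59 values that changed sign belong to genes not called in that comparison, with log2 values given as the range over the libraries left out in turn. For BMP2 against PBS, the sign depended on which library was left out for Hmgcs1 (-0.0023 to 0.11), Mvk (-0.044 to 0.51), Pmvk (-0.0021 to 0.23), Mvd (-0.38 to 0.34) and Idi1 (-0.015 to 0.65). It did so too for Lss (-0.16 to 0.36), Sc5d (-0.025 to 0.43), Srebf1 (-0.088 to 0.0796), Lpin1 (-0.18 to 0.16) and Npc2 (-0.10 to 0.073). It did so too for Abca1 (-0.11 to 0.072), Abcg1 (-2.55 to 0.39), Nr1h3 (-0.41 to 1.51) and Mylip (-0.70 to 0.056). Without PBS 1 and BMP2 1, the sign also differed, at -0.12 for Idi1, 0.0498 for Tm7sf2, 0.091 for Srebf1, 0.092 for Npc2, -0.50 for Nr1h3 and 0.061 for Mylip. For BMP2+DM against BMP2, the sign depended on which library was left out for Mvd (-0.16 to 0.56), Sc5d (-0.11 to 0.34), Dhcr7 (-0.0297 to 0.15), Srebf1 (-0.036 to 0.077) and Lpin1 (-0.12 to 0.22). It did so too for Npc1 (-0.0202 to 0.32), Abca1 (-0.16 to 0.19), Abcg1 (-0.99 to 1.95), Nr1h3 (-0.75 to 1.16) and Mylip (-0.10 to 0.66). Without PBS 1 and BMP2 1, the sign also differed, at -0.16 for Mvd, -0.11 for Sc5d, 1.94 for Abcg1, 1.16 for Nr1h3 and -0.10 for Mylip. For BMP2+DM against PBS, the sign depended on which library was left out for Mvd (-0.091 to 0.42), Srebf1 (-0.066 to 0.10), Lpin1 (-0.041 to 0.11), Npc1 (-0.20 to 0.14) and Abca1 (-0.18 to 0.17). It did so too for Nr1h2 (-0.32 to 0.048) and Mylip (-0.20 to 0.095). Without PBS 1 and BMP2 1, the sign also differed, at -0.044 for Mvd and 0.047 for Nr1h2. The cause was not tested.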
